A study of Mus musculus with 2 samples.

Results

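The genes described here are 10 regulators of the G1 phase of the cell cycle and of its exit into S phase, measured in the CE1-4 line of mouse prostate cancer cells after 6 h with PGE-2 (prostaglandin E2, a lipid mediator made by the cyclooxygenases) and without treatment. They are the D-type cyclin genes Ccnd1, Ccnd2 and Ccnd3, the E-type cyclin genes Ccne1 and Ccne2, the kinase genes Cdk4, Cdk6 and Cdk2, the transcription factor gene E2f1 and the phosphatase gene Cdc25a. They were chosen by symbol, and all 10 matched a row among the 23420 gene symbols of the deposited read counts. Each group was 1 library of total RNA: cells of this line treated with PGE-2 for 6 h, and untreated cells of the same line. The labels name no dose, no vehicle and no culture time for the untreated cells, so a vehicle or time effect cannot be told apart from one of PGE-2. The series title places the line in a study of COX-2 in prolactin signaling between tumor and stroma. With 1 library per group, no difference below has a replicate check and none has a p-value. The ratios compare these libraries.

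D-type cyclins are made in response to growth signals and activate Cdk4 and Cdk6, which begin the phosphorylation of the retinoblastoma protein. That phosphorylation frees E2F factors such as E2F1, which switch on genes of DNA replication and also the genes of the E-type cyclins. Cyclin E activates Cdk2, and Cdc25a removes the inhibitory phosphates from Cdk2, so that cells enter S phase. Many of these steps are set at the protein level, through synthesis, phosphorylation and degradation, which transcript counts do not measure.

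Counts of close relatives can only be compared if their reads can be told apart, so the coding sequences of the members were compared, using GENCODE M21 transcripts (GRCm38, or mm10). Ccnd1 and Ccnd2 were identical at 72.4% of aligned coding bases, Ccnd1 and Ccnd3 at 68.8%, Ccnd2 and Ccnd3 at 70.7%, Ccne1 and Ccne2 at 62.9%, and Cdk4 and Cdk6 at 70.8%. The longest run of identical coding bases within a family was 20 bases, in Ccnd1 with Ccnd2 and in Cdk4 with Cdk6, and it was 18 bases in Ccne1 with Ccne2. These runs are shown whole in capitals. Within the coding sequences compared, each is the longest stretch in which the dominant gene of a family and its next paralog cannot be told apart:
Ccnd1 and Ccnd2: TTCAAGTGCGTGCAGAAGGA
Cdk4 and Cdk6: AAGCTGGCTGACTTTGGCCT
Ccne1 and Ccne2: AAACTTGAGGAAATCTAC
The Ccnd1 and Ccnd2 run began at base 133 of the Ccnd1 coding sequence and at base 127 of that of Ccnd2. A read longer than these runs that matched exactly within the coding sequence of such a pair would fit 1 gene of the pair. Exon bases outside the coding sequences were not compared. The read length is not given in the sources used here.

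Another kind of overlap touches several members. Ccnd1 shared 1100 exon bases (23.4% of its exon length) with Oraov1, named LTO1 in the annotation. Cdk4 shared 641 bases (19.7%) with Tspan31, and Ccne2 shared 609 bases (17.4%) with Ints8. Ccnd3 shared 361 bases (4.11%) with Bysl. All of these neighbours lie on the opposite strand. The strand setting of the counting is not given in the sources used here, so reads in the shared bases may have been dropped or assigned to either gene. Oraov1 had 405 counts in the treated and 443 in the untreated library, Tspan31 had 2263 and 2260, Ints8 had 983 and 883, and Bysl had 391 and 354. Ccne1, E2f1 and Cdc25a shared no exon base with another gene.

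Promoter windows, 250 bases before to 50 bases after a transcription start, were in the RefSeq table of GRCm38.p6 for 7 of the members: Ccnd3 (with 2 windows), Ccne1, Cdk4, Cdk6, Cdk2, E2f1 and Cdc25a. The start used for E2f1 lies 466 bases inside the gene as GENCODE M21 annotates it. It lies 294 bases from the nearest start of a coding transcript there. The whole E2f1 window is thus inside the gene and not at the start of a coding transcript of that release. The Cdk6 start lies 2408 bases inside the gene but at the start of another coding transcript. The second Ccnd3 start likewise lies inside the gene, 3 bases from the start of a coding transcript. E2F factors bind sites of the kind TTTCGCGC, TTTGGCGC, TTTCCCGC and TTTGCCGC. Searched on both strands, these letters were found in the windows of Cdc25a and Cdk2, and in 2.26% of all 32851 windows of the table. These windows are shown because E2F1 is itself a member. The match is in capitals and the rest in lower case, each written along the strand of its gene:
Cdc25a, chr9:109875329-109875628, plus strand: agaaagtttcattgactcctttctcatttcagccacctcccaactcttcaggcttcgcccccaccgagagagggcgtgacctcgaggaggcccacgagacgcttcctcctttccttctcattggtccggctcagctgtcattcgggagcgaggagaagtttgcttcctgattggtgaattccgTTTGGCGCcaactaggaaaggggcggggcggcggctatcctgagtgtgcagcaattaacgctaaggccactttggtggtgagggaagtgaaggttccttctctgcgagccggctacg
Cdk2, chr10:128705002-128705301, minus strand: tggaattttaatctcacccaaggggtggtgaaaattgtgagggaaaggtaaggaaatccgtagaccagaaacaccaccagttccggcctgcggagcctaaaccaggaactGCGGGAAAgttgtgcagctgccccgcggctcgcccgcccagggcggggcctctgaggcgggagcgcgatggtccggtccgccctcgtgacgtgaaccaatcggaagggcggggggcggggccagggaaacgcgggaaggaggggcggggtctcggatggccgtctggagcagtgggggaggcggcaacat
The Cdc25a match began 67 bases before the start site, and that of Cdk2 began 140 bases before it. The full site for CREB, a factor activated downstream of cAMP, is TGACGTCA, and it was found in none of the 8 windows of the members and in 1.79% of all windows. Its part TGACG, which the full site contains, was found in 6 of these 8, those of Ccnd3 (both), Cdk4, Cdk6, Cdk2 and E2f1. It was in 20.8% of all windows. The Sp1 letters GGGCGG were in 7 of the 8, all except that of Cdk6, and in 35.7% of all windows. Bases G and C made up 56.7% to 77.3% of each member window, and the shares of all windows were not matched for this. A match of letters is a description of the window and not evidence of binding.

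The treated library held 17582808 counts and the untreated library 16908429, so that 1 CPM, the usual depth-scaled unit of counts, stood for 17.6 counts in the treated and 16.9 in the untreated library. All 10 members reached 1 CPM in both libraries, and the lowest counts were 193 for E2f1 in treated and 180 for Ccnd3 in untreated cells. Of the markers used to check the cell line label, the luminal keratin gene Krt8 was at 1276 CPM in the treated and 1256 CPM in the untreated library. Krt18, its luminal partner, was at 778 CPM in treated and 758 CPM in untreated cells, while Krt5, a basal keratin gene, had 2 and 0 counts. Ptprc of leukocytes had 1 and 0 counts and Pecam1 of endothelium 3 and 0 counts. A count of 0 in the untreated library, taken as 3 counts, allows a level of up to 0.178 CPM.

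The G1 genes differed little between PGE-2 treated and untreated cells. None of the 10 passed the 2-fold rule (at least 2-fold, with a 95% counting interval that excludes a ratio of 1), a rule that 0.307% of the 11387 tested genes passed, 0.0527% on the higher and 0.255% on the lower side. Tested genes are those at 1 CPM or more in at least 1 library, and intervals cover counting error only. With a filter of 5 CPM, a level that all 10 members exceeded in both libraries, 1 gene passed the rule. The share of 0.307% thus came mostly from genes scarcer than the members, and passing none does not set the members apart. For all 10 the interval also excluded a difference of 1.5-fold in either direction. The share of all tested genes with such an interval was not computed, so this does not set the members apart from other genes. The interval excluded a ratio of 1 for 2 members, Ccnd1 on the higher side and Ccne1 on the lower side, against 12.3% of all tested genes. At the 99% level the Ccne1 interval included 1, with an upper bound of 0.055 on the log2 scale. Under total count or upper quartile scaling Ccne2 was called as well, on the higher side. That background splits into 6.61% with the interval above 1 and 5.65% with it below. The members' share of 2 in 10 rests on too few genes to be set apart from that background. The median log2 ratio of treated over untreated was 0.011 over the members and -0.0014 over all tested genes, with 5 members above 1 and 5 below. The members' range was -0.23 for Ccne1 to 0.24 for Ccne2. In a bulk library, a change in the share of cells in G1 and a change in RNA per cell cannot be told apart.

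**Figure D1:**
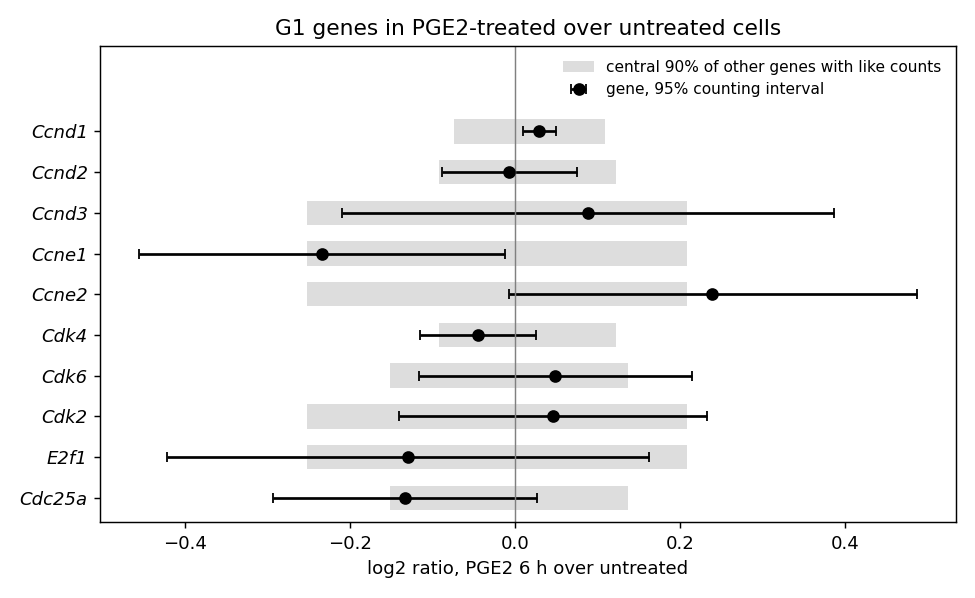
Log2 ratio of PGE-2 treated over untreated cells for each G1 gene (points) with its 95% counting interval (bars). Grey bars span the central 90% of the other tested genes in the same range of counts, and only Ccne2, at 0.24, lies outside its grey bar.

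Cyclin D1 transcripts made up nearly all of the D-type cyclin RNA in both libraries. Ccnd1 lies on chromosome 7 from 144929931 to 144939925 on the minus strand and had 40080 counts in treated and 37572 counts in untreated cells. That was 2273 CPM (95% Poisson interval 2251 to 2296) in treated and 2228 CPM (2206 to 2251) in untreated cells. Its log2 ratio was 0.029 (0.0086 to 0.049), a 1.02-fold difference. At such counts an interval that excludes 1 is common: it was found for 46.2% of the 621 other genes whose summed counts reached 10000. The central 90% of their log2 ratios ran from -0.074 to 0.11, which takes in the ratio of Ccnd1.

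Cyclin D2, the D-type cyclin best known from granulosa cells and lymphocytes, was the next of the family. Ccnd2 (chromosome 6, 127125162 to 127152193, minus strand) had 2462 counts in treated and 2367 in untreated cells, 139.6 and 140.4 CPM, with a log2 ratio of -0.0075 (-0.089 to 0.075). Cyclin D3, prominent in lymphoid cells, was the scarcest of the family. Ccnd3 (chromosome 17, 47505051 to 47599691, plus strand) had 200 counts in treated and 180 in untreated cells, a log2 ratio of 0.087 (-0.21 to 0.39). For both genes the libraries could not be told apart beyond counting error.

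To compare genes with each other, CPM was divided by the length of all annotated exons of the gene in kb. On this scale Ccnd1 was at 483 CPM per kb in treated and 473 CPM per kb in untreated cells, rank 67 of 10721 tested genes with an annotated length in each library. Ccnd2 was at 14.8 and 14.9 CPM per kb, and Ccnd3 at 1.29 and 1.22. Ccnd1 thus took 96.8% (96.6 to 96.9) of the summed level of the D-type cyclins in treated cells and 96.7% (96.6 to 96.8) in untreated cells. Ccnd2 took 2.97% and 3.05%, and Ccnd3 0.259% and 0.249%. The intervals of each share overlapped between the libraries. The level of Ccnd1 was 32.5 times that of Ccnd2 in treated and 31.7 times in untreated cells per kb of exon, but 15.9 and 15.6 times per kb of coding sequence, where the Ccnd2 share was 5.87% and 6.01%. Under every other length tried, Ccnd1 held between 93.5% and 97.3%.

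Cdk4 was the main kinase partner gene of the D-type cyclins. Cdk4 (chromosome 10, 127063534 to 127067920, plus strand) had 3321 counts in treated and 3278 in untreated cells, 188 and 194 CPM, a log2 ratio of -0.045 (-0.12 to 0.025). Cdk6, its close relative with a known part in blood cell development, is a plus-strand gene of chromosome 5, at 3341485 to 3531008. It had 625 counts in treated and 578 in untreated cells, 35.4 and 34.3 CPM, a log2 ratio of 0.048 (-0.12 to 0.21). Both intervals included 1.

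Per kb of exon, Cdk4 was at 58.0 CPM per kb in treated and 59.8 in untreated cells, while Cdk6, whose exons add up to 13989 bases against 3249 for Cdk4, was at 2.53 and 2.45. Cdk4 therefore held 95.8% (95.5 to 96.1) of the summed level in treated and 96.1% (95.7 to 96.4) in untreated cells. Without a length correction its share was 84.2% in treated and 85.0% in untreated cells, so Cdk4 was the larger on either scale. The D-type cyclins together were at 499 CPM per kb in treated and 489 in untreated cells, 8.24 and 7.86 times the sum of Cdk4 and Cdk6 (6.70 and 6.38 times by the longest coding transcript, 11.3 and 10.8 times by coding sequence). These are transcript levels, and they do not give the ratio of the proteins.

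**Figure D2:**
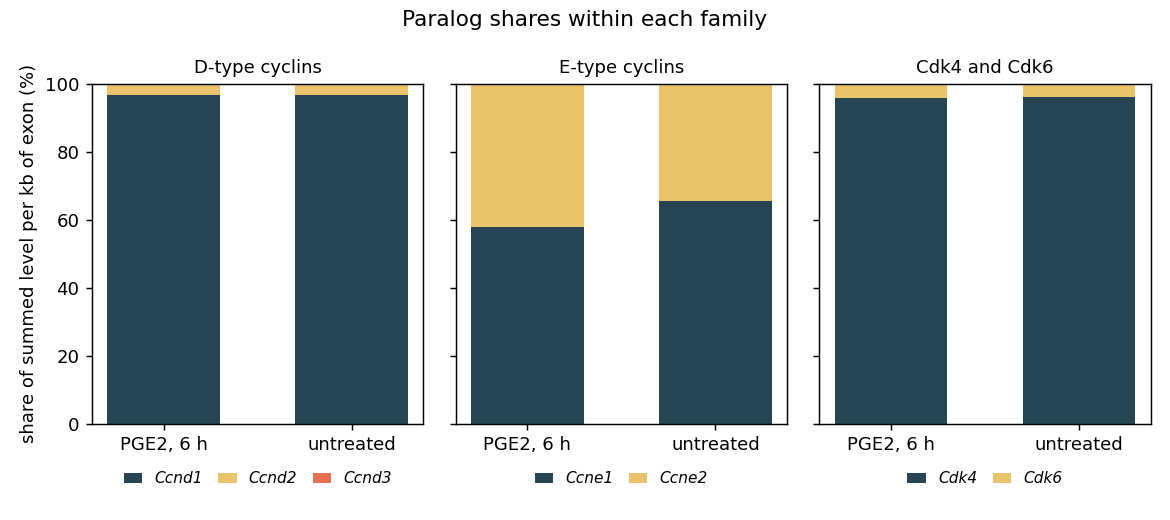
Share of each paralog in the summed level of its family (% of CPM per kb of exon) in PGE-2 treated and untreated cells. Ccnd1 and Cdk4 fill over 95% of their bars, with Ccnd3, at 0.259% and 0.249%, too thin to be seen, while Ccne1 and Ccne2 split theirs at 57.9% to 42.1% in treated and 65.6% to 34.4% in untreated cells.

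The E-type cyclins had the lowest and the highest ratio of the members. Ccne1 (chromosome 7, 38097984 to 38107534, minus strand) had 320 counts in treated and 360 in untreated cells, 18.2 CPM (16.2 to 20.3) and 21.3 CPM (19.2 to 23.7). Its log2 ratio was -0.23 (-0.46 to -0.013), a 0.850-fold level in treated cells. Ccne2 (chromosome 4, 11191351 to 11204779, plus strand) had 306 counts in treated and 248 in untreated cells, 17.4 CPM (15.5 to 19.4) and 14.7 CPM (12.9 to 16.7). Its log2 ratio was 0.24 (-0.0074 to 0.49), a 1.18-fold level in treated cells whose interval just included 1. For the 3008 other genes whose summed counts lay from 300 to below 1000, the central 90% of log2 ratios ran from -0.25 to 0.21. Ccne1 lay inside that range and Ccne2 above it.

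Setting Ccne2 against Ccne1 within each library removes the scaling between libraries. The odds of Ccne2 over Ccne1 counts were higher in treated than in untreated cells by a log2 value of 0.47 (0.14 to 0.81, exact conditional interval for counting error). The other 4 such pairs within families, 3 of D-type cyclins and Cdk6 with Cdk4, had log2 values between -0.036 and 0.095, each with an interval that included 0. Per kb of exon Ccne1 was at 6.82 CPM per kb in treated and 8.02 in untreated cells, and Ccne2 at 4.97 and 4.21. Ccne1 held 57.9% (53.9 to 61.7) of the summed level in treated and 65.6% (61.8 to 69.2) in untreated cells, and these intervals only just failed to overlap. The summed level itself was 11.8 CPM per kb in treated and 12.2 in untreated cells. The E-type pair was chosen for emphasis after its values were seen, and how far such odds differ between libraries of the same condition was not tested. The part that reads shared with Ints8 play in the value of Ccne2 was not tested.

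Cdk2, the kinase partner of both E-type cyclins, lies on chromosome 10 from 128697939 to 128705031 on the minus strand. It had 491 counts in treated and 455 in untreated cells, a log2 ratio of 0.045 (-0.14 to 0.23). Per kb of exon it was at 4.48 in treated and 4.34 CPM per kb in untreated cells, and the E-type cyclins together were 2.63 and 2.82 times that level. By the longest coding transcript this ratio was 1.28 in treated and 1.39 in untreated cells, and by coding sequence 1.09 and 1.14. The D-type cyclins together were 42.3 times the E-type cyclins in treated and 40.0 times in untreated cells per kb of exon, and 94.1 and 91.0 times per kb of coding sequence.

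E2f1 and Cdc25a both had ratios below 1 with intervals that included it. E2f1 (chromosome 2, 154559407 to 154569892, minus strand) had 193 counts in treated and 202 in untreated cells, 10.9 and 12.0 CPM, a log2 ratio of -0.13 (-0.42 to 0.16). Cdc25a (chromosome 9, 109875579 to 109893895, plus strand) had 629 counts in treated and 660 in untreated cells, 35.7 and 39.1 CPM, a log2 ratio of -0.13 (-0.29 to 0.026). Per kb of exon E2f1 was at 3.47 in treated and 3.80 CPM per kb in untreated cells, and Cdc25a at 4.45 and 4.88.

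**Figure D3:**
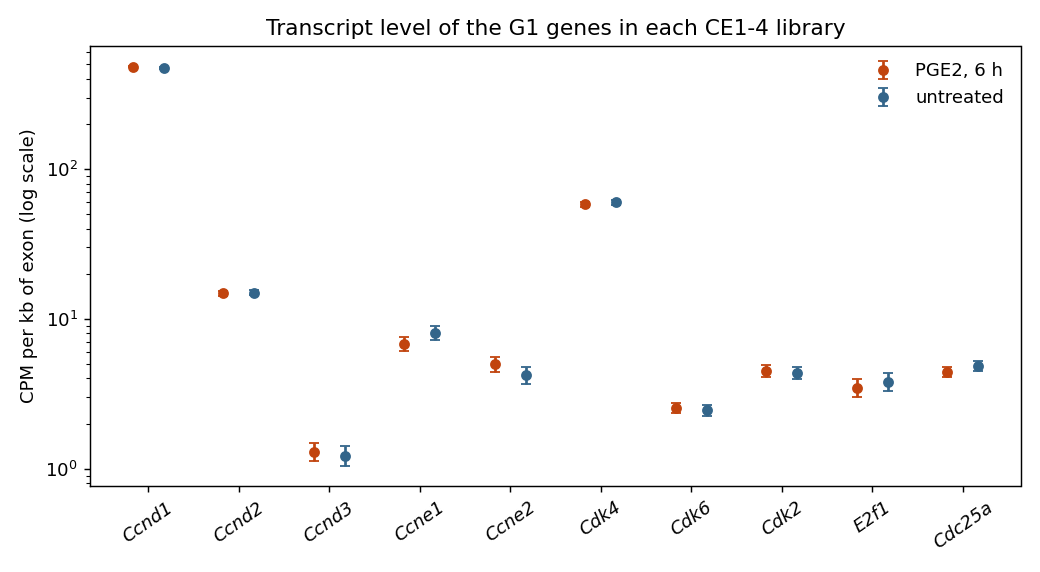
Level of each G1 gene in CPM per kb of exon (log scale) in PGE-2 treated (left point) and untreated (right point) cells, with 95% Poisson intervals. Ccnd1 stands highest at 483 and 473, followed by Cdk4 at 58.0 and 59.8 and Ccnd2 at 14.8 and 14.9.

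Ordered by level per kb of exon, the members ran Ccnd1, Cdk4, Ccnd2 and Ccne1 in both libraries, each above the next beyond its counting interval. They ended with E2f1, Cdk6 and Ccnd3 in both, again without overlap between neighbours. Between them stood Ccne2, Cdk2 and Cdc25a in treated cells and Cdc25a, Cdk2 and Ccne2 in untreated cells, where neighbours overlapped. Ccne2 also overlapped E2f1 in untreated cells. The first 3 places were the same with the longest protein-coding transcript, the longest coding sequence or the exon bases not shared with other genes as the length. The lower places were not. With the longest coding transcript, Ccnd3, whose exons total 8775 bases but whose longest coding transcript has 2113, was at 5.37 CPM per kb in treated and 5.05 in untreated cells, above Cdk6 at 3.08 and 2.97, while Cdk2 moved up to the fourth place at 11.6 and 11.2.

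**Figure D4:**
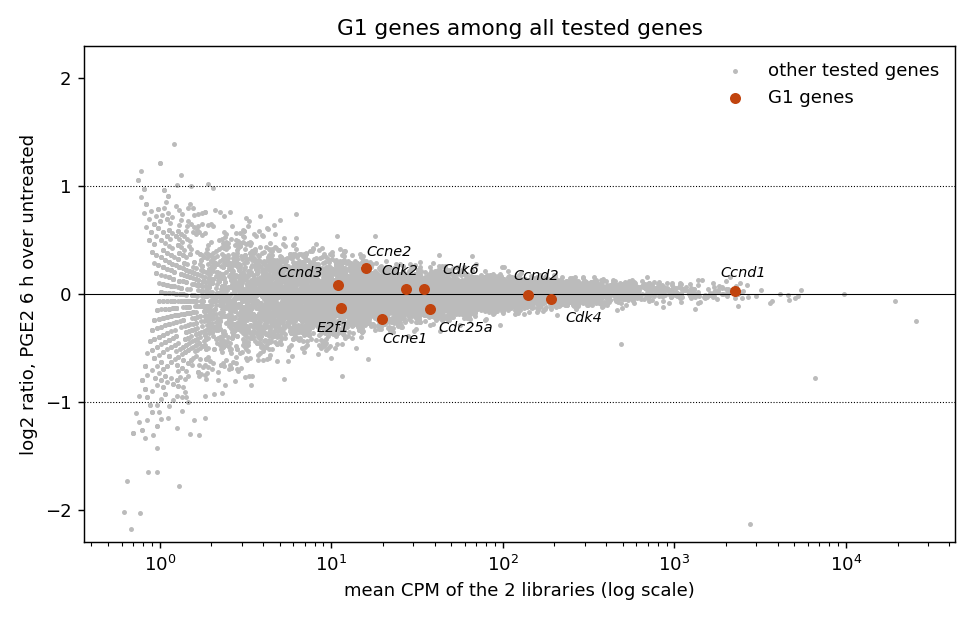
Log2 ratio of PGE-2 treated over untreated cells against mean CPM (log scale) for all tested genes (grey) and the G1 genes (orange), with dotted lines at 2-fold. The 10 members span from Ccnd3, at 11.3 CPM in treated and 10.7 CPM in untreated cells, to Ccnd1, at 2273 and 2228 CPM, and lie between log2 ratios of -0.23 and 0.24.

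The genes around these regulators were counted in 8 lists with 75 tested members of 80 listed. None passed the 2-fold rule, 8 had an interval above 1 and 1 an interval below it, and their median log2 ratio was 0.030. Of all tested genes, whose median was -0.0014, 0.307% passed that rule, 6.61% had such an interval above 1 and 5.65% below. The share above 1 depends on counts, and was 14.2% among the 1883 other genes with summed counts from 3000 to below 10000, the range that holds Pcna, Pola1, Ccna2, Cul3 and Cdk8 of the 8. Of the other listed genes, Cdkn1c, Pkmyt1, Ccna1 and Usp2 stayed below 1 CPM in both libraries. Cdk3 had no row under that symbol in the deposited read counts, so it was not analysed here. The genes named are, in each list, the 3 highest per kb in untreated cells and up to 3 whose interval excluded 1.

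Of 6 tested inhibitors of cyclin-dependent kinases, 1 had an interval above 1 and 0 below it, and the median log2 ratio was -0.0048. Cdkn2d, encoding the Cdk4 and Cdk6 inhibitor p19INK4d, had 229 counts in treated and 170 in untreated cells, a log2 ratio of 0.36 (0.073 to 0.66). The most abundant per kb were Cdkn2b at 18.0 in treated and 18.3 CPM per kb in untreated cells, Cdkn1b, encoding p27, at 17.8 and 17.1, and Cdkn2c at 16.6 and 16.4. Their log2 ratios were -0.025, 0.056 and 0.015, with intervals that included 1.

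Of the retinoblastoma family and the subunits of the DREAM repressor complex, 1 of 8 had an interval above 1 and 0 below it, with a median of 0.054. That gene was Lin37, a DREAM subunit, with 84 counts in treated and 55 in untreated cells (0.54, 0.039 to 1.06). Rb1, the retinoblastoma gene, had 1030 and 947 counts (0.057, -0.072 to 0.19), Rbbp4, encoding a histone-binding protein, 4427 and 4119 (0.040, -0.022 to 0.10), and Lin54, the DNA-binding subunit of DREAM, 764 and 705 (0.052, -0.098 to 0.20).

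None of the 9 other E2F factors and dimer partners had an interval that excluded 1, and their median was 0.024. Tfdp1, the E2F dimer partner, was at 29.6 CPM per kb in treated and 29.4 in untreated cells, with a log2 ratio of 0.0068 (-0.087 to 0.10). E2f5, a repressor E2F, was at 16.5 and 17.2 CPM per kb (-0.061, -0.24 to 0.12), and E2f3, an activator like E2f1, at 7.52 and 7.91 (-0.072, -0.22 to 0.079). Both stood above E2f1, at 3.47 and 3.80 CPM per kb.

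The list of E2F target genes of the G1/S transition had 2 of 24 genes with an interval above 1, against the 6.61% of all tested genes, 0 below it, and a median of 0.066. Pcna, the sliding clamp of DNA polymerases, had 4096 counts in treated and 3517 in untreated cells (0.16, 0.090 to 0.22). Pola1, a subunit of the primase-polymerase, had 1628 and 1391 (0.16, 0.059 to 0.27). Rrm2, a subunit of ribonucleotide reductase and the most abundant of the list per kb, was at 232.4 and 232.2 CPM per kb (0.0011, -0.037 to 0.039), and Mcm4, of the replicative helicase, at 39.9 and 39.0 (0.030, -0.051 to 0.11).

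Among later cyclins, Cdk1 and the other CDC25 phosphatases, the interval lay above 1 for 1 of 6 tested genes and below it for 0, with a median of 0.047. Ccna2, encoding cyclin A2, which follows cyclin E as partner of Cdk2, had 2812 counts in treated and 2498 in untreated cells (0.11, 0.028 to 0.18). Ccnb1, encoding cyclin B1, had 2806 and 2549 (0.074, -0.0036 to 0.15), and Cdk1, the mitotic kinase, 3994 and 3721 (0.038, -0.027 to 0.10). At 39.1 in treated and 36.3 CPM per kb in untreated cells, Ccna2 stood above both E-type cyclins. Of the kinases that act on the members, the list of the CDK-activating kinase, Wee1 and Pkmyt1 had 0 of 4 tested genes with an interval that excluded 1, and a median of -0.038. Cdk7, the catalytic subunit, had a log2 ratio of 0.0087, its cyclin gene Ccnh 0.062, and Mnat1, the assembly factor, -0.085.

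The ubiquitin ligase subunits that turn over G1 cyclins, p27 and Cdc25a had 1 of 11 tested genes with an interval above 1 and 1 below it, and a median of -0.00090. Fbxo31, an F-box protein gene linked to the turnover of cyclin D1, had 119 counts in treated and 167 in untreated cells (-0.55, -0.90 to -0.21). Cul3, a scaffold of ligases that act on cyclin E, had 4324 and 3919 (0.078, 0.015 to 0.14), while Cul1, the scaffold of the SCF ligases, had 3979 and 3808 (-0.00090, -0.065 to 0.064) and Cks1b, the helper of Skp2, 1095 and 999 (0.068, -0.057 to 0.19). Of 7 other cyclins and kinases, 2 had an interval above 1, with a median of 0.012. Ccng1, encoding cyclin G1, had 35681 and 33113 counts (0.043, 0.022 to 0.065), a range of counts where 33.3% of genes had an interval above 1. Per kb of exon it was the only gene of the 8 lists to exceed Ccnd1. It was at 576 in treated and 559 CPM per kb in untreated cells. Without division by length it was below Ccnd1, at 2024 against 2273 CPM in treated and 1964 against 2228 CPM in untreated cells. Cdk8, the Mediator kinase, had 1689 and 1437 counts (0.17, 0.066 to 0.27), and Ccni (0.012) and Ccng2 (-0.021) had intervals that included 1.

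**Figure D5:**
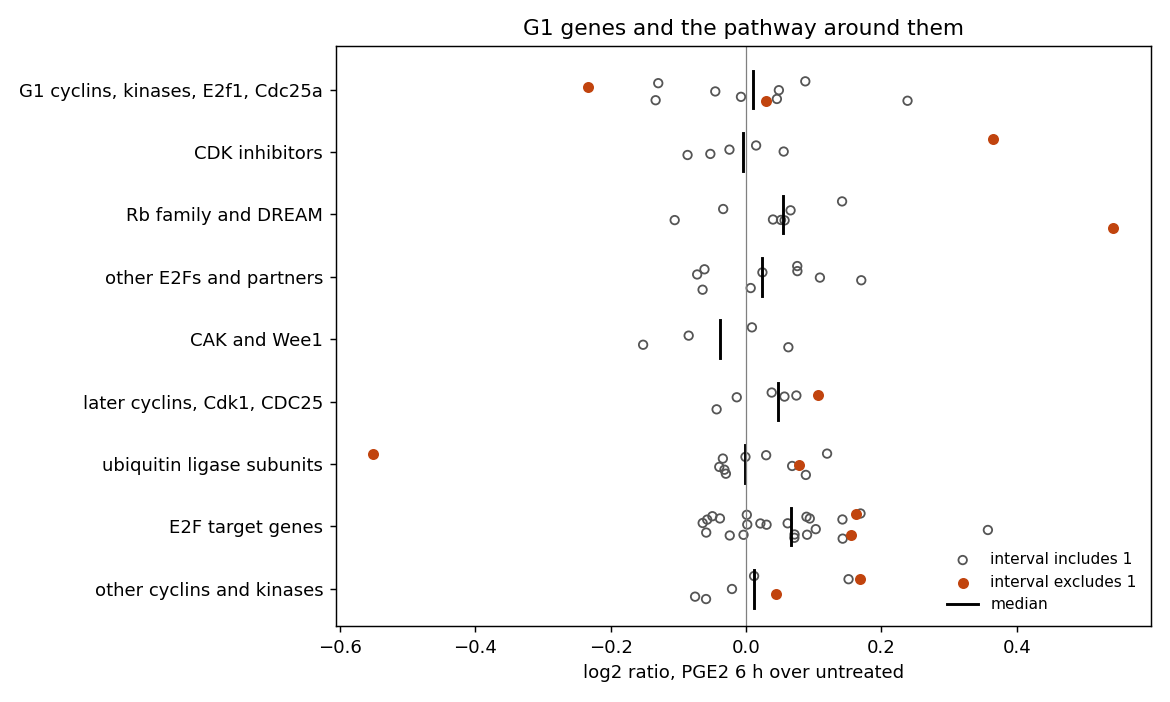
Log2 ratio of PGE-2 treated over untreated cells for the G1 genes (top row) and the tested genes of 8 lists around them, with filled points where the 95% counting interval excludes a ratio of 1 and a black line at each median. The medians lie between -0.038 and 0.066, and Lin37 at 0.54 and Fbxo31 at -0.55 are the farthest points.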

How the data were processed

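Per the submitters' processing notes, reads were handled with Trimmomatic, TopHat2, Bowtie and HTSeq on mm10. The sources used here give no tool versions, gene models or strandedness for HTSeq. In the deposited table, the authors' read counts are whole numbers per gene symbol, not normalized, with 1 column for each library and 0 columns of other series. The labels' protocols name column-purified total RNA and a stranded total RNA library kit.

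Libraries were scaled with edgeR 4.0.16 (TMM) in R 4.3.3. Log2 ratios used a prior of 0.5 counts. Ratio intervals are 95% Clopper-Pearson intervals and level intervals exact Poisson intervals. The interval of a share is an exact binomial interval of the gene's counts carried to the per-length scale with the lengths and the mix of the other paralogs held fixed. All cover counting error only. Genes at 1 CPM or more in at least 1 library were tested, and 94.2% of these had an exon length in GENCODE M21. Coding sequences were aligned with Biopython 1.88. The ratio procedure was tested on simulated counts that vary by counting error alone. That test cannot show how far libraries of the same condition differ.

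Alternatives were other scalings (total counts, upper quartile, DESeq2 1.42.0), a prior of 5, filters, a 99% interval, a 1.5-fold threshold and other gene lengths, those for ratios between genes or families being chosen after seeing the data. Of each list, the up to 3 tested genes with the highest level per kb in untreated cells, and up to 3 whose interval excluded 1 by the widest margin, were named. The members, lists, motifs and naming rule were chosen with earlier results of these data known. Part of the markers for the cell line label is not reported here.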

Additional observations from a re-analysis of the deposited data

How the results depend on the processing

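No paired analysis was possible because each group holds 1 library, and for the same reason no replicate could be left out. Under total counts, upper quartile and DESeq2 scaling and a prior of 5, all 40 alternative log2 ratios of the members stayed within their counting intervals. The median of all genes moved to between 0.0060 and 0.0065 under the other scalings. The sign of the Ccnd2 ratio, whose interval includes 1, turned under total counts (0.00035) and upper quartile scaling (0.00035). The interval of Ccne2 excluded 1 under these scalings too, which made 3 members. Its lower bound on the log2 scale was 0.00043 under total counts and 0.00044 under upper quartile scaling. With a 99% interval, 1 member excluded 1, Ccnd1. The number of genes past the 2-fold rule, 35, became 13 with a prior of 5, 83 with no filter, 1 at a filter of 5 CPM, 15 with a 99% interval and 94 at 1.5-fold. No member was among them under any of these settings.

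Shares of paralogs depend on the length used. The treated and untreated shares of Ccnd1 were 95.7% and 95.6% by the longest coding transcript, 93.7% and 93.5% by the longest coding sequence, 93.8% and 93.7% with no length, and 97.3% and 97.2% by exon bases not shared with other genes, a length added after seeing the data. Those of Cdk4 were 96.8% and 97.0%, 85.1% and 85.9%, 84.2% and 85.0%, and 96.5% and 96.7% in the same order. Those of Ccne1 were 61.1% and 68.6%, 50.9% and 59.0%, 51.1% and 59.2%, and 53.1% and 61.1%.

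Depth limits E2f1, Ccnd3 and the E-type cyclins most, at 193 to 320 counts in treated and 180 to 360 in untreated cells.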
